A study of Homo sapiens with 16 samples.

Results

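The core of the transforming growth factor-beta (TGF-beta) pathway is described here by 10 genes: the ligand TGFB1, the receptors TGFBR1 and TGFBR2, the signal transducers SMAD2, SMAD3 and SMAD4, and 4 genes that restrain the signal, SMAD7, PMEPA1, SKI and SKIL. The 10 symbols were fixed by name and matched to the Ensembl gene identifiers of the count tables; they are 10 of 60662 identifiers, and all 10 were among the 14092 genes tested. RNA-seq was made from Jurkat E6-1, an established line of human T cells with wild-type genotype, classed by the labels as lymphoma. Of 16 libraries, 8 are controls, untreated and taken at 0 h, and 8 are from cells moved into phosphate-buffered saline with hydrogen peroxide at 10 µM and collected 4 h later (peroxide). Cells were grown in serum-containing medium before that step. Untreated cells kept in saline for the same time were not analysed here, so the effects of time, loss of medium and peroxide cannot be told apart. The names of the deposited tables place 4 libraries of each group in each of 2 batches; the meaning of a batch was not given in the sources used here. All libraries are labelled as biological replicates of this 1 line, and they do not speak for primary T cells.

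TGF-beta is secreted in a latent complex and, once released, brings together a type II receptor (TGFBR2) and a type I receptor (TGFBR1). The type I kinase phosphorylates SMAD2 and SMAD3, which join SMAD4 and regulate genes in the nucleus; SMAD7 and PMEPA1 act back on receptors and SMADs, and SKI and SKIL are nuclear corepressors of SMAD complexes. In T cells the pathway is known for holding back proliferation and for its part in regulatory T cell differentiation.

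Promoter sequences are shown for 4 of the genes that differed between the groups, each with a motif searched for in a window. SMAD3 and SMAD4 also differed and had windows with such motifs, but their sequences are not shown. The sequences come from the RefSeq promoter table on GRCh38.p14, which gave 27 windows for 9 of the 10 genes. Each window ran from 250 bases before a transcript start to 50 bases after it, and both strands were read. The TGFB1 stretch is chr19:41353923-41354168 on the minus strand, directly before the start of its first exon, and capitals mark 6 GC boxes (GGGCGG or its reverse complement, the core to which SP1-type factors are known to bind). The TGFBR2 stretch is chr3:30606584-30606613 on the plus strand, with an AP-1 motif (TGANTCA) in capitals. The PMEPA1 stretch is chr20:57710001-57710030 on the minus strand, and the SKIL stretch chr3:170357650-170357679 on the plus strand. In both, capitals mark a cyclic AMP response element (TGACGTCA). The TGFBR2 and PMEPA1 stretches begin 17 and 15 bases before a transcript start and run past it.
TGFB1: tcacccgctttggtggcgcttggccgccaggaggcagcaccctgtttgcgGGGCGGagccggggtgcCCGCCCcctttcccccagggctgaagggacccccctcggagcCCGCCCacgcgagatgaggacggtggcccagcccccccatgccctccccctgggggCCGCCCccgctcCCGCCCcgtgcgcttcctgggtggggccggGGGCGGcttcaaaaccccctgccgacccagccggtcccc
TGFBR2: ttgaagttgagTGAGTCActcgcgcgcacg
PMEPA1: ccgtctagcgcTGACGTCAgaccgtctgcc
SKIL: cgaggactcggTGACGTCAgagggctgtgt
The GC box was in 13 of the 27 windows, from 8 genes, and in 45.0% of 35116 promoter windows of the same length. The cyclic AMP response element was in 2 of the 27, one each for PMEPA1 and SKIL, against 1.85% of all windows. The AP-1 motif was also in 2, one for TGFBR2 and one for SMAD3, against 7.71%. An EGR motif (GCGNGGGCG, which can overlap a GC box) was in 5 of the 27 windows and 9.43% of all. Of the letters linked to SMAD binding, CAGACA was in 4 of the 27 windows and 16.9% of all, and the palindrome GTCTAGAC was in 0 of the 27 and 0.202% of all. These matches describe letters and not bound sites. The PMEPA1 and SKIL windows that share the cyclic AMP response element belong to genes that differed between the groups in opposite directions.

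Levels are TMM-scaled read counts in units of library size (CPM), shown by the mean ± SD of 8 libraries; differences are edgeR log2 fold changes of peroxide against control with their standard errors (SE), called at a Benjamini-Hochberg adjusted p under 0.05 over all genes tested. TGFB1 RNA was higher after peroxide, while RNA of its type II receptor TGFBR2 and of the feedback gene PMEPA1 was lower. SMAD4 and SKIL were slightly higher and SMAD3 slightly lower. TGFBR1, SMAD2, SMAD7 and SKI were not called. In all, 3 of the 10 genes were higher, 3 were lower and 4 were not called. The response was wide: 48.3% of all genes tested were called, 24.1% higher and 24.3% lower (3391 and 3419 genes; scaled by total counts and not TMM factors, 2822 and 4375), so a share of 60.0% among 10 genes is not far from the background. The median log2 fold change was -0.09 over the 10 genes and -0.01 over all genes tested.

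**Figure D1:**
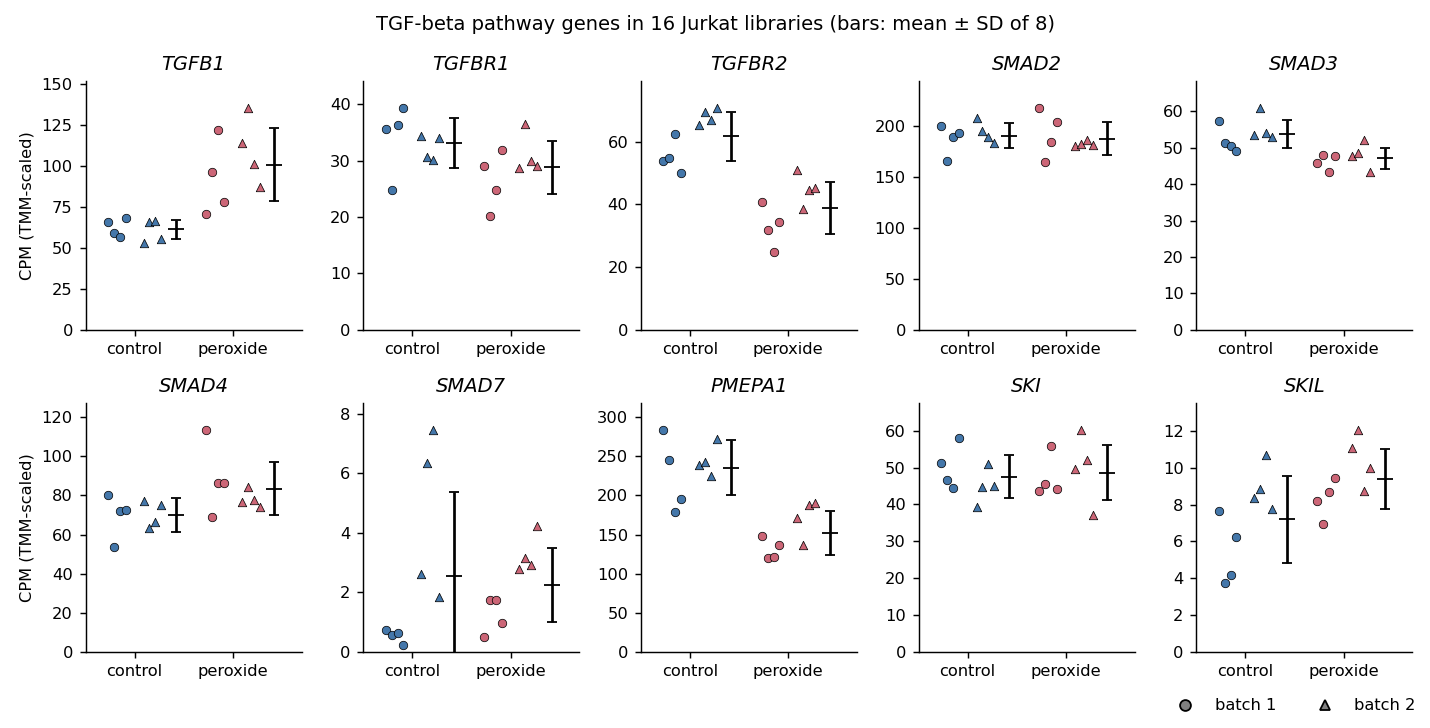
Level of each of the 10 genes in every library, in CPM with TMM scaling on a linear axis from 0; circles are batch 1, triangles batch 2, and bars the mean ± SD of 8 libraries. TGFB1 is the gene with no overlap between the groups, from at most 68.0 CPM in controls to at least 70.6 CPM in peroxide libraries.

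Each library had 5556553 to 15720881 reads in genes, and pairs of libraries of 1 group differed by more than sampling noise (chi-square per degree of freedom from 2.97 within a batch to 50.1 across batches). Reads not aligned uniquely were 34.1% ± 5.43 (SD, n = 8) of reads in controls and 38.3% ± 4.33 (SD, n = 8) in peroxide libraries. Of 15 T cell marker genes all were tested, and 4 were lower (LAT, CD3G, CD2 and CD28; 26.7% called, beside 48.3% of all genes tested). CD2 was not called in batch 2 alone (adjusted p = 0.141) or without the batch term (adjusted p = 0.145). CD28 was not called in batch 1 alone (adjusted p = 0.474), without the batch term, or without any 1 of controls 3, 4 and 7 or peroxide 4, 5, 7 and 8. The summed level of the T cell markers was 3617 to 4717 CPM in controls and 3601 to 4734 CPM in peroxide libraries. Of 6 B cell markers 2 were tested and neither was called (51.0 to 95.2 CPM against 53.1 to 97.5 CPM in sum). Of 6 myeloid markers 2 were tested, CD14 and ITGAM, which passed the filter only through the peroxide libraries and were higher. The 6 markers had sums of 0.125 to 1.10 CPM in controls and 4.35 to 14.2 CPM in peroxide libraries. Summed over a group, the 4 untested ones had few reads: MPO had 4 (controls) and 70 (peroxide), CSF1R had 5 and 22, LYZ had 3 and 8, and FCGR3A had 1 and 0. Of 8 fibroblast and endothelial markers 1 was tested, PECAM1, which was lower but not called in batch 2 alone or without the batch term (adjusted p up to 0.254; sums of 88.1 to 170 CPM and 78.0 to 143 CPM), and COL1A2 was at 0 in all libraries. The part of these markers in the results was not tested. In bulk RNA, fewer cells of a kind and less RNA per cell cannot be told apart.

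TGFB1, the ligand, lay between 53.1 and 68.0 CPM in the 8 controls (median 62.4) and between 70.6 and 135 CPM in the 8 peroxide libraries (median 98.9). Every peroxide library was above every control; 6.76% of all genes tested showed that pattern. The mean was 61.2 ± 5.96 CPM in controls and 101 ± 22.2 CPM after peroxide (SD, n = 8 each), a log2 fold change of 0.71 ± 0.11 (SE, edgeR adjusted p = 1.3e-05) or 63.5% more. The spread was wider among peroxide libraries, where replicates 1 and 4 were the lowest (70.6 and 78.2 CPM) and replicate 6 the highest. The difference was 0.55 ± 0.14 in batch 1 alone (edgeR adjusted p = 0.0065) and 0.86 ± 0.12 in batch 2 alone (adjusted p = 8.4e-05). Exons of TGFB1 share 215 bases with HNRNPUL1 on the opposite strand, an abundant gene whose level was 610 ± 40.1 CPM in controls and 591 ± 33.7 CPM after peroxide (SD, n = 8 each; not called). The strand setting of the counting was not given in the sources used here.

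TGFBR2, the ligand-binding type II receptor, lay between 50.04 and 70.8 CPM in controls (median 63.9) and between 24.8 and 50.9 CPM in peroxide libraries (median 39.7). Of the 8 peroxide libraries 7 were below all controls, and peroxide replicate 5 (50.9 CPM) lay just above the lowest control (replicate 4, 50.04 CPM). These last 2 libraries are of different batches, and within each batch all peroxide libraries were below all controls, a pattern of 8.74% of genes tested. The mean fell from a control value of 61.7 ± 7.82 CPM to 38.9 ± 8.32 CPM (SD, n = 8 each), a log2 fold change of -0.67 ± 0.08 (SE, edgeR adjusted p = 8.6e-07). It was -0.74 ± 0.13 in batch 1 alone (adjusted p = 0.00050) and -0.60 ± 0.08 in batch 2 alone (adjusted p = 7.8e-05).

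TGFBR1, the type I kinase that phosphorylates SMAD2 and SMAD3, lay between 24.8 and 39.4 CPM in controls (median 34.1) and between 20.2 and 36.5 CPM in peroxide libraries (median 29.02), and the groups overlapped broadly. Its log2 fold change was -0.20 ± 0.10 (SE, edgeR adjusted p = 0.105), with a 95% interval from -0.42 to 0.01. It would be called with total counts for TMM factors (-0.27, adjusted p = 0.037), with no filter on low counts (-0.26, adjusted p = 0.018), without control replicate 2 (-0.25, adjusted p = 0.042) or without peroxide replicate 6 (-0.26, adjusted p = 0.040). The value was -0.37 ± 0.15 in batch 1 alone and -0.05 ± 0.10 in batch 2 alone, and neither was called.

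Reads of ligand and receptor set side by side within a library do not depend on library scaling. There were 0.779 to 1.36 TGFB1 reads per TGFBR2 read in controls (median 0.972) and 1.73 to 4.91 in peroxide libraries (median 2.28). For TGFBR1 the range was 1.55 to 2.39 TGFB1 reads per read in controls and 2.44 to 4.91 in peroxide libraries. The groups did not overlap in either ratio, but TGFB1 by itself already had every peroxide library above every control. TGFBR1 by itself was not called. The share of other gene pairs whose ratio separates the groups was not worked out, so the ratios only restate these levels.

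SMAD2, one of the pair of receptor-activated SMADs, was the more abundant in reads at 190 ± 12.4 CPM in controls and 187 ± 16.3 CPM in peroxide libraries (SD, n = 8 each). Its log2 fold change was -0.02 ± 0.06 (SE, edgeR adjusted p = 0.796), with a 95% interval from -0.15 to 0.10. SMAD3, the other receptor-activated SMAD, which binds DNA directly, lay between 49.1 and 61.0 CPM in controls (median 53.2) and between 43.2 and 52.1 CPM in peroxide libraries (median 47.7). Of the 8 peroxide libraries 7 were below all controls, all but replicate 7, and within each batch the groups did not overlap. The SMAD3 mean fell from a control value of 53.7 ± 3.87 CPM to 47.1 ± 2.94 CPM (SD, n = 8 each), a log2 fold change of -0.19 ± 0.06 (SE, edgeR adjusted p = 0.0096). With the 8 libraries of 1 batch it was not called, at -0.17 ± 0.09 in batch 1 (adjusted p = 0.155) and -0.21 ± 0.08 in batch 2 (adjusted p = 0.05004).

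SMAD4, the partner shared by all SMAD complexes, lay between 53.5 and 80.1 CPM in controls (median 72.3) and between 69.0 and 114 CPM in peroxide libraries (median 81.1). Of the 8 peroxide libraries 4 were above all controls, and peroxide replicate 1 stood apart at 114 CPM, with the next highest at 86.5 CPM. The mean was 70.1 ± 8.60 CPM in controls and 83.5 ± 13.6 CPM after peroxide (SD, n = 8 each), a log2 fold change of 0.25 ± 0.09 (SE, edgeR adjusted p = 0.028). The call was lost without peroxide replicate 1 (0.17, adjusted p = 0.065), without control replicate 2 (0.19, adjusted p = 0.061), without control replicate 6 (0.23, adjusted p = 0.055), with total counts for TMM factors (0.19, adjusted p = 0.089) and without the batch term (0.25, adjusted p = 0.052). It was 0.35 ± 0.14 in batch 1 alone and 0.15 ± 0.08 in batch 2 alone, neither called. Per SMAD2 read there were 0.323 to 0.412 SMAD4 reads in controls and 0.409 to 0.522 in peroxide libraries. Exons of SMAD4 share 967 bases with AC091551.1 on the same strand, a gene with 0 reads in both groups.

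PMEPA1, a membrane protein induced by TGF-beta that sequesters SMAD2 and SMAD3, lay between 179 and 284 CPM in controls (median 241) and between 120 and 191 CPM in peroxide libraries (median 143). Of the 8 peroxide libraries 6 were below all controls, and the other 2 (replicates 7 and 8 of batch 2) lay above control 3 of batch 1, the lowest control; within each batch the groups did not overlap. The mean fell from a control value of 235 ± 35.3 CPM to 152 ± 28.3 CPM (SD, n = 8 each), a log2 fold change of -0.64 ± 0.09 (SE, edgeR adjusted p = 7.8e-06). It was -0.78 ± 0.13 in batch 1 alone (adjusted p = 0.00029) and -0.51 ± 0.10 in batch 2 alone (adjusted p = 0.0012). The antisense gene NKILA, a long non-coding RNA known to restrain NF-kappaB, shares 343 exon bases with PMEPA1. NKILA was itself lower (8.62 ± 1.65 CPM against 5.34 ± 1.30 CPM, SD, n = 8 each; log2 fold change -0.70 ± 0.14, edgeR adjusted p = 0.00033), and without knowledge of strand the reads of the pair cannot be told apart. NKILA had 720 reads in all controls, against 19520 for PMEPA1.

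SMAD7, the inhibitory SMAD that brings ubiquitin ligases to the receptors, was scarce, with 260 reads in all controls and 154 in all peroxide libraries. The batches differed more than the groups. In batch 1 it lay between 0.245 and 0.748 CPM in controls and between 0.481 and 1.73 CPM in peroxide libraries, and in batch 2 between 1.83 and 7.47 CPM and between 2.80 and 4.22 CPM. The log2 fold change was -0.15 ± 0.32 (SE, edgeR adjusted p = 0.724), with a 95% interval from -0.83 to 0.52. A test of whether the difference changed between the batches gave -1.603 on the log2 scale (unadjusted p = 0.029, edgeR adjusted p = 0.178). That was the only one of the 10 genes with an unadjusted p under 0.05 in this interaction test, and 0 of the 10 were called by edgeR, by DESeq2 or by limma-voom, beside 4.88% of all genes tested by edgeR; with no filter on low counts edgeR called 1, SMAD7.

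SKI, a corepressor that binds SMAD complexes, lay between 39.2 and 58.0 CPM in controls (median 45.8) and between 37.1 and 60.2 CPM in peroxide libraries (median 47.5). Its log2 fold change was 0.03 ± 0.09 (SE, edgeR adjusted p = 0.802), with a 95% interval from -0.16 to 0.22. SKIL, the related corepressor that is itself a TGF-beta target, lay between 3.75 and 10.7 CPM in controls (median 7.71) and between 6.94 and 12.1 CPM in peroxide libraries (median 9.10). The groups overlapped, and the lowest values were control replicates 2 and 3 (3.75 and 4.20 CPM). The SKIL mean was 7.19 ± 2.35 CPM in controls and 9.39 ± 1.64 CPM after peroxide (SD, n = 8 each), a log2 fold change of 0.38 ± 0.13 (SE, edgeR adjusted p = 0.024). The call was lost without control replicate 3 (0.31, adjusted p = 0.059), without peroxide replicate 4 (0.34, adjusted p = 0.053), with total counts (0.32, adjusted p = 0.056) and without the batch term (0.37, adjusted p = 0.133). In batch 1 alone it was 0.57 ± 0.21 (adjusted p = 0.046) and in batch 2 alone 0.22 ± 0.15 (adjusted p = 0.249).

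**Figure D2:**
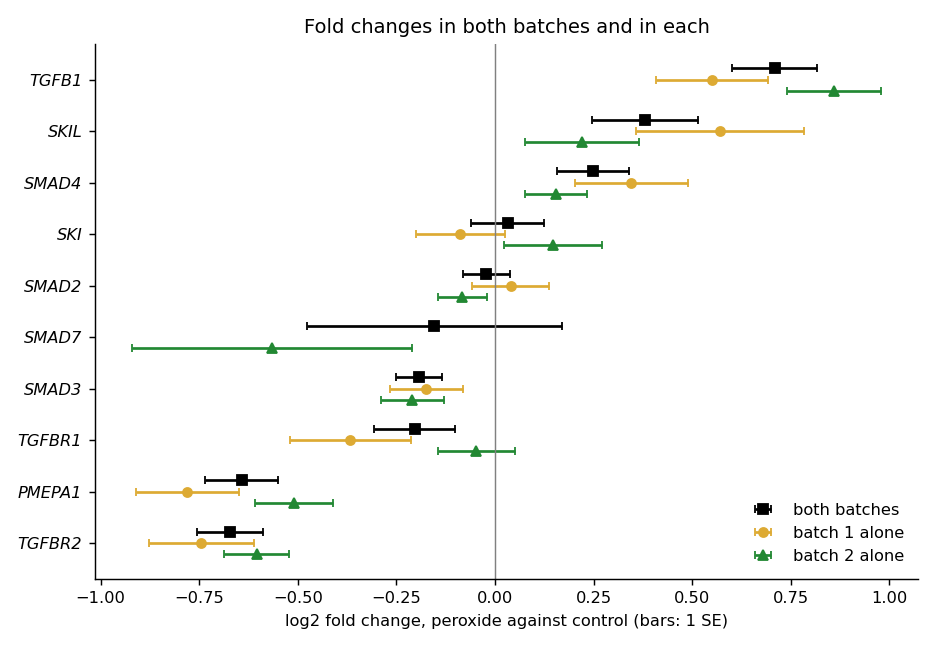
Log2 fold change of peroxide against control for the 10 genes, with bars of 1 SE, from both batches together (squares), batch 1 alone (circles) and batch 2 alone (triangles). TGFB1, TGFBR2 and PMEPA1 keep their side of 0 by several SE in each batch, and SMAD7 has no value in batch 1, where it was below the filter.

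Across the 10 genes, 1 (TGFB1) did not overlap between the groups of 8, beside 11.3% of all genes tested. Within each batch separately 4 did not overlap, TGFB1 above and TGFBR2, SMAD3 and PMEPA1 below, beside 19.2% of all genes. TGFB1, TGFBR2 and PMEPA1 had larger changes in size than 88.6%, 87.6% and 86.7% of genes tested, and none of the 10 reached 2-fold with a call, as 6.85% of genes did.

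**Figure D3:**
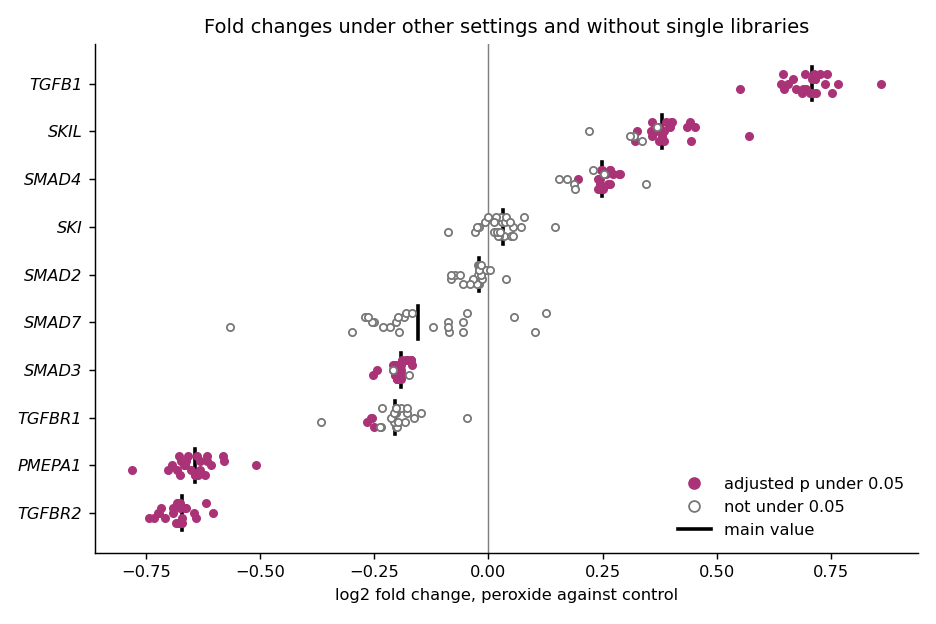
Log2 fold change of each of the 10 genes under every alternative and with each library left out, with the reported value as a black bar; filled points have an adjusted p under 0.05. All points are filled for TGFB1, TGFBR2 and PMEPA1, and SMAD3, SMAD4, SKIL and TGFBR1 have points of both kinds.

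Per kilobase of GENCODE release 29 exon sequence, the order of levels in controls was PMEPA1 (41.9 ± 6.27 CPM per kb), TGFB1 (18.9 ± 1.84), TGFBR2 (13.1 ± 1.66) and SKI (7.82 ± 0.947), all SD over 8 libraries. SMAD3 (5.89), SMAD4 (5.34), SMAD2 (5.23) and TGFBR1 (4.84) followed with differences within about their SDs, and SKIL (0.924) and SMAD7 (0.509) were last. After peroxide TGFB1 stood first (31.1 ± 6.86 CPM per kb) and PMEPA1 next (27.0 ± 5.04), a difference within their SDs, followed by TGFBR2 (8.26 ± 1.77) and SKI (7.98 ± 1.22), which also lay within their SDs of each other. The order rests on the length used: with the median length of coding transcripts, SMAD2, whose exons together span 36366 bases, comes first in both groups, and SKIL and SMAD7 still come last.

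By correlation of log2 CPM over the 16 libraries, with batch means removed, the genes most like TGFB1 were HELZ2 (r = 0.955), RNF220 (r = 0.953) and PRR29 (r = 0.950). For TGFBR2 they were RNF144A (r = 0.972), ATP9A (r = 0.967) and AMOTL1 (r = 0.965), and for PMEPA1 BCL7A (r = 0.968), SFXN2 (r = 0.966) and PXYLP1 (r = 0.956). These were the highest of 10783 genes compared, and the libraries share the difference between the groups, so the values only describe which genes move together.

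Of 74 further genes of the pathway, 61 were tested: 13 were higher, 21 lower and 27 not called (55.7% called, beside 48.3% of all genes). The median log2 fold change was -0.08. Of the 61, 1 (BAMBI) passed the filter only through the peroxide libraries. Of 18 genes for ligands and their activation 10 were tested. Of these, 1 was higher, 3 were lower and 6 were not called (40.0% called, beside 48.3% of all genes). LTBP2, of the latent TGF-beta binding protein family, was higher (1.19 ± 0.491 to 2.24 ± 0.381 CPM; log2 fold change 0.93 ± 0.22, edgeR adjusted p = 0.0014). NRROS, which anchors latent TGF-beta at the cell surface, was lower (108 ± 21.6 to 71.3 ± 13.0 CPM; -0.59 ± 0.11, adjusted p = 1.0e-04). FURIN, the protease that cuts the TGF-beta precursor, was lower by a smaller amount (-0.24 ± 0.08, adjusted p = 0.016), as was LTBP1, which holds latent TGF-beta in the matrix (-0.33 ± 0.12, adjusted p = 0.032). FURIN was not called in batch 2 alone or without the batch term. LTBP1 was not called in either batch alone, without the batch term, without the 2 libraries richest in non-unique reads or without any 1 of 7 libraries (controls 1, 3, 6 and 7, peroxide 3, 4 and 8). The ligand gene TGFB2 stayed below the filter, with 4 reads in all controls and 84 in all peroxide libraries, and was not tested.

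Of 13 genes for other receptors of the family 8 were tested, and 2 were higher and 3 lower (62.5% called, beside 48.3% of all genes). The activin receptors ACVR1B, a type I kinase that also phosphorylates SMAD2 and SMAD3, and ACVR2B, a type II receptor, fell most. ACVR1B had 43.1 ± 4.81 CPM in controls and 22.1 ± 1.90 CPM after peroxide (SD, n = 8 each), a log2 fold change of -0.96 ± 0.06 (edgeR adjusted p = 1.9e-11). ACVR2B had 111 ± 8.55 CPM and 63.4 ± 6.93 CPM, a log2 fold change of -0.80 ± 0.06 (adjusted p = 6.6e-10). In both genes, which were taken for their small p, every peroxide library was below every control, a pattern of 4.49% of all genes. BMPR2, a type II receptor for bone morphogenetic proteins, was also lower (-0.29 ± 0.09, adjusted p = 0.012; not called in batch 2 alone, -0.22, adjusted p = 0.197). BAMBI, a pseudoreceptor without a kinase that dampens TGF-beta signalling, went from 0.805 ± 0.192 to 6.58 ± 2.65 CPM (69 and 447 reads, log2 fold change 2.97 ± 0.23). It is counted as higher but passed the filter only through the peroxide libraries. Its adjusted p is left out and its call is no separate support. ACVR2A, the other activin type II receptor, was higher from a low level (2.12 ± 0.657 to 3.40 ± 0.991 CPM; 0.69 ± 0.19, adjusted p = 0.0055; not called in batch 2 alone, 0.38, adjusted p = 0.278).

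Among the 4 other SMADs, SMAD9, of the bone morphogenetic protein arm, was higher at a low level (1.6996 ± 0.636 to 2.44 ± 0.552 CPM; 0.56 ± 0.21, edgeR adjusted p = 0.030), not called with total counts, with no filter, without the batch term, within either batch (adjusted p up to 0.189), without the 2 libraries richest in non-unique reads or without any 1 of 8 libraries (controls 1, 3, 6 and 7, peroxide 1, 3, 4 and 7). The other 3 were not called, so 25.0% were called, beside 48.3% of all genes. SMAD1 (-0.27 ± 0.11, edgeR adjusted p = 0.054) and SMAD5 (-0.22 ± 0.10, adjusted p = 0.072) lay on the lower side. They would be called in 5 and 4 of 9 alternatives, single libraries left out not counted. The inhibitory SMAD6 had 66.9 ± 22.4 and 69.4 ± 19.9 CPM. Of 17 ubiquitin ligases, deubiquitinases and phosphatases that act on receptors or SMADs, all were tested, and 4 were higher and 8 lower (70.6% called, beside 48.3% of all genes). The higher ones were the deubiquitinases USP15 (0.44 ± 0.11, adjusted p = 0.0021) and USP11 (0.26 ± 0.07, adjusted p = 0.0069) and the ligases SMURF2 (0.30 ± 0.08, adjusted p = 0.0027) and SMURF1 (0.19 ± 0.07, adjusted p = 0.035). USP15 was not called in batch 2 alone, SMURF2 not in batch 2 alone or without the batch term, and USP11 not in batch 1 alone or without the batch term. SMURF1 was not called in batch 2 alone (0.11, adjusted p = 0.435), with total counts, with no filter, without the batch term, without the 2 libraries richest in non-unique reads or without any 1 of 9 libraries (controls 1, 3, 4 and 8, peroxide 1, 3, 4, 5 and 6). The lower ones with the smallest p were CTDSP2 and CTDSP1, phosphatases of the SMAD linker (-0.45 ± 0.06, adjusted p = 5.0e-06, and -0.33 ± 0.06, adjusted p = 0.00013), and the deubiquitinase USP4 (-0.23 ± 0.06, adjusted p = 0.0016; not called in batch 1 alone). The CTDSP1 call was lost without the batch term (adjusted p = 0.258).

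Of 14 SMAD partners and anchors 5 were higher and 5 lower (71.4% called, beside 48.3% of all genes). ZFYVE9, which presents SMAD2 and SMAD3 to the receptor, went from 27.3 ± 2.66 to 18.3 ± 1.96 CPM (log2 fold change -0.57 ± 0.08, edgeR adjusted p = 4.3e-06). TGFBRAP1, a receptor-associated protein (-0.49 ± 0.06, adjusted p = 3.4e-07), and the corepressor NCOR1 (-0.44 ± 0.05, adjusted p = 4.0e-07) were lower as well. In these 3 genes, which were taken for their small p, every peroxide library was below every control, as in 4.49% of all genes. LDLRAD4, the homologue of PMEPA1, was also lower (238 ± 22.02 to 173 ± 21.9 CPM; -0.46 ± 0.07, adjusted p = 7.9e-06), as was the corepressor TGIF1 (-0.52 ± 0.12, adjusted p = 0.0012; not called in batch 2 alone). SNW1, a nuclear cofactor, was higher (0.33 ± 0.06, adjusted p = 0.00018). The acetyltransferase CREBBP was higher in both batches together (0.34 ± 0.11, adjusted p = 0.015) but differed between them (interaction adjusted p = 0.0034), at 0.72 in batch 1 alone and -0.043 in batch 2 alone, and it was not called without the batch term. HGS, STRAP and LEMD3 completed the higher ones, at 0.19, 0.14 and 0.21. HGS was not called in batch 2 alone or with no filter. STRAP was not called in batch 1 alone or with the replicate block (adjusted p = 0.061), and LEMD3 not in either batch alone. STRAP and LEMD3 were also not called with total counts, with no filter, without the batch term, without the 2 libraries richest in non-unique reads, or without any 1 of 10 libraries each (STRAP: controls 1, 3, 4, 5, 6 and 7, peroxide 1, 4, 5 and 6. LEMD3: controls 2, 3, 4, 7 and 8, peroxide 1, 4, 5, 6 and 7). In the arm that runs through the kinase TAK1 and other routes apart from SMADs, 2 of 8 genes were lower, TAB1 (-0.25 ± 0.07, adjusted p = 0.0087) and ROCK1 (-0.21 ± 0.06, adjusted p = 0.0079), and 6 were not called (25.0% called, beside 48.3% of all genes); neither of the lower ones was called in batch 1 alone.

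**Figure D4:**
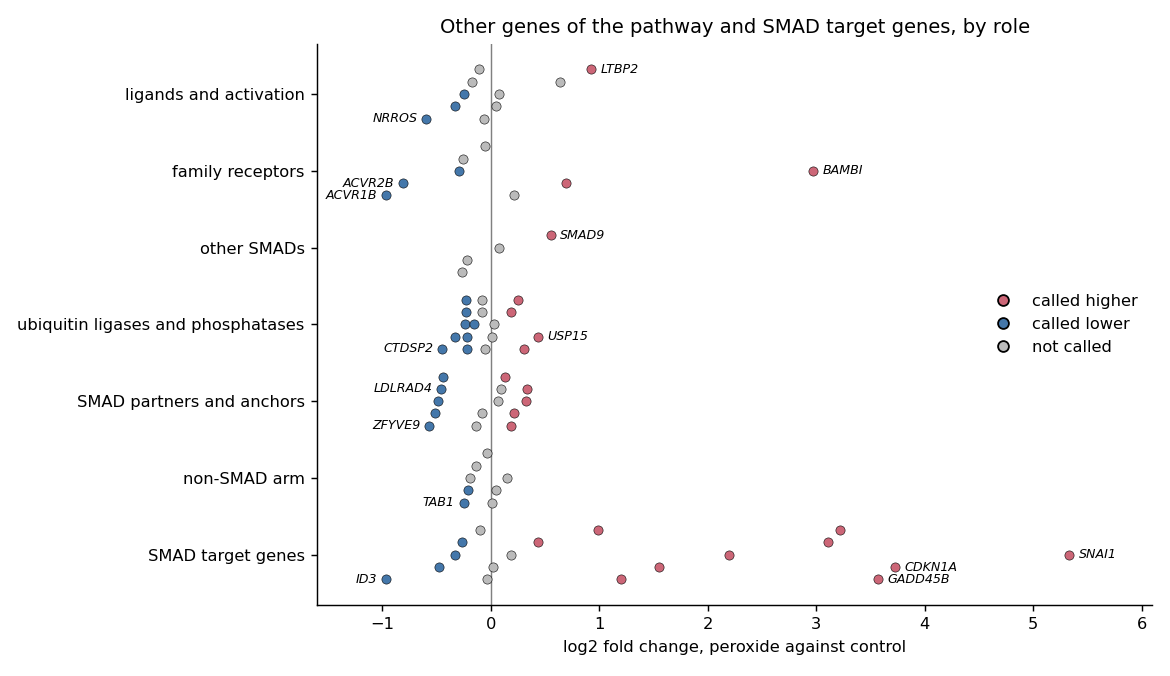
Log2 fold change of peroxide against control for the 61 further pathway genes and the SMAD target genes that were tested (1 target gene is not drawn), one point a gene, in rows by role; red points were called higher, blue lower and grey not called. Most pathway genes lie within 1 of 0, BAMBI stands at 2.97, and SNAI1 of the target list lies at 5.33. Both BAMBI and SNAI1 passed the filter only through the peroxide libraries.

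Of 28 genes known as targets of SMADs in other cells 19 were tested. Of these, 11 were higher, 4 lower and 4 not called (78.9% called, beside 48.3% of all genes). The median log2 fold change was 0.99. Of the 19, 2 passed the filter only through the peroxide libraries. CDKN1A, the cell cycle inhibitor, went from 1.07 ± 0.272 to 15.0 ± 4.99 CPM (SD, n = 8 each; log2 fold change 3.73 ± 0.21, edgeR adjusted p = 8.5e-12). PPP1R15A, a phosphatase subunit of the integrated stress response, went from 43.4 ± 21.5 to 379 ± 72.4 CPM (3.22 ± 0.20, adjusted p = 2.8e-11), with an interaction with batch (adjusted p = 0.0020). GADD45B, a stress-induced gene that activates p38 signalling, went from 8.88 ± 1.20 to 106 ± 51.3 CPM (3.57 ± 0.24, adjusted p = 1.3e-10). SNAI1, a repressor of epithelial genes, had 70 reads over the controls and 2307 over the peroxide libraries (5.33 ± 0.34). It passed the filter only through the peroxide libraries, so its adjusted p is left out and its call is no separate support. ID2 (3.11 ± 0.27), JUNB (1.55 ± 0.21) and KLF10 (0.99 ± 0.16) were higher too. Leaving SNAI1 aside, every peroxide library was above every control in the higher genes named here except for KLF10. These genes were taken for their small p, and 6.76% of all genes tested show that pattern. The 4 lower genes were ID3, an inhibitor of helix-loop-helix factors (110 ± 48.6 to 58.4 ± 28.4 CPM; -0.96 ± 0.23, adjusted p = 0.0017), BHLHE40 (-0.48 ± 0.13), KLF11 (-0.33 ± 0.13) and SOX4 (-0.26 ± 0.09). ID3 was not called in batch 2 alone (-0.74, adjusted p = 0.070), nor was BHLHE40 in batch 1 alone. KLF11 was lost in batch 2 alone, without the batch term, with the replicate block (adjusted p = 0.076) and without any 1 of 11 libraries (controls 2, 3, 4, 7 and 8, peroxide 1, 2, 3, 4, 7 and 8). SOX4 was lost in batch 2 alone (-0.022, adjusted p = 0.860), without the batch term, without control 4 and without peroxide 2. Within the list, genes of the same family went opposite ways, ID2 up and ID3 down, and ID1 was not called (26.4 ± 15.5 and 24.8 ± 9.61 CPM).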

How the data were processed

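RNA-seq counts of 16 libraries, 8 of each group, were used. The authors deposited 1 table of raw, unnormalized counts a library. STAR 2.7.1a, HTSeq 0.6.1 and the build hg19 were used, per the submitters' processing notes; counting mode and strand setting were not given in the sources used here, and no coordinate is taken from the files. Symbols were found for 99.6% of identifiers. The 5 rows of each table that name no gene (43.5% to 57.6% of counted reads) were left out of library sizes and tests.

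Genes were filtered with filterByExpr, which left 14092 genes. Counts were scaled with TMM and tested with edgeR 4.0.16 (quasi-likelihood, R 4.3.3) with batch and group as terms. The procedure was tested on simulated data that held no batch difference. Of 50 genes changed 1.25-fold it recovered 54%, and of 50 changed 1.5-fold 90%. Of its 177 calls, 6 were of unchanged genes. Adjustment of p followed Benjamini and Hochberg. The SE is the size of the log2 fold change over the square root of F. The interaction of batch and group was a separate fit. Alternatives were DESeq2 1.42.0, limma-voom (limma 3.58.1), total counts, no filter (at least 1 read), no batch term, a replicate block, each batch alone, leaving out the 2 libraries richest in non-unique reads (control 1 and peroxide 5), and without each library. Replicate numbers recur in both groups, but same-numbered libraries did not deviate together. Nothing says the libraries came from separate cultures beyond their label as biological replicates, so p-values measure the spread between them.

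The 10 genes, the further lists and the rule for naming genes were chosen with earlier results of these data known. From each pathway role, called genes at 1 CPM or more on average were named, up to 3 by smallest p, with others to complete counts of 5 or fewer; up to 8 SMAD target genes were named by smallest p (1 that the rule took is counted but not reported here), and 3 similar genes for each of the 3 largest changes among genes of at least 5 CPM. TGFB2, SMAD1, SMAD5, SMAD6, ID1 and the overlapping genes were named outside this rule. So were the markers CD3G, CD2, CD28, LAT, CD14, ITGAM, LYZ, FCGR3A, MPO, CSF1R, COL1A2 and PECAM1.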

Additional observations from a re-analysis of the deposited data

Results flagged for a closer look

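The SMAD4 level in peroxide replicate 1, 113.6 CPM, lay far from the other 7 peroxide libraries, whose highest was 86.5 CPM: its gap to the nearest library was 0.608 of the whole range of the group, above Dixon's 95% critical value for 8 libraries. It was the only extreme of the 20 groups of 8 (10 genes in 2 groups) past that value, and chance flags about 1 in 20 such groups.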

How the results depend on the processing

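TGFB1, TGFBR2 and PMEPA1 kept direction and call under every alternative and without each library, at 0.64 to 0.76, -0.72 to -0.62 and -0.68 to -0.58 with single libraries left out. Genes higher and lower (3391 and 3419) were 2822 and 4375 with total counts, 5150 and 4326 with no filter, 2534 and 2454 without the batch term, and 3189 to 3438 and 3221 to 3604 with single libraries left out. Of the 10 core genes, 1 was higher with total counts, 1 without the batch term and 1 in batch 2 alone; with single libraries left out, 2 to 3 were higher and 3 to 4 lower. Of further pathway and target genes, 24 were higher and 25 lower; 16 were lower in batch 2 alone, and 20 to 25 were higher and 22 to 28 lower with single libraries left out. The interaction count was 1 with no filter and 0 with each library left out. CREBBP reversed to -0.043 in batch 2 alone. The cause was not tested.

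With the replicate block, 3313 genes were higher and 3374 lower, 3 and 3 of the core genes, and 23 and 27 of the further genes. The numbers were not taken to pair the libraries: same-numbered libraries had correlations of deviations from -0.155 to 0.171, with 2 of 8 pairs over 0.1, and 2 libraries correlated best with their own number. Depth limits SMAD7 most, at 260 and 154 reads.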
